A study of Mus musculus with 28 samples.

Results

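Integrins and the proteins that gather on their cytoplasmic tails were followed here in hair follicle stem cells of old and young mice. The genes were taken by symbol, from integrin chains and 17 named genes of focal adhesions and hemidesmosomes. The integrins were numbered beta chains, and alpha chains except Itga6 with a digit or v, l, m, x or e after Itga. Genes were kept where any of 5 deposited tables listed them, which left 38 of the 18274 gene symbols in those tables, 21 of them integrins. Itga10, Itgae and Itgb2 fit the same rule but stood in none of the tables. Itga6 was set aside because alpha6 integrin is one of the surface proteins the cells were sorted on.

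The old mice were 24 months old and the young mice 6 months. All were of the strain given as 132-C67BL/6J, with no transgene, deletion or treatment named in the labels. Cells were released from skin with trypsin and sorted for CD34 together with alpha6 integrin. In total 28 libraries were made. ATAC-seq, which cuts open chromatin, had 4 old and 4 young libraries, and RNA-seq 3 and 3. Chromatin immunoprecipitation had 3 old and 3 young libraries for H3K27me3, the repressive mark of Polycomb, and 2 and 2 each for H3K4me3, the mark of transcription start sites, and for RNA polymerase II (Pol2). The submitters call the samples biological replicates. Only the ATAC-seq table holds values per library. The total count over its listed peaks ran from 1572998 to 1946804 in the old libraries and from 2456110 to 2773284 in the young ones. The other tables give group levels and the authors' own comparison, and their depth is unknown. All 10 markers of hair follicle stem cells, Cd34, Krt15, Sox9 and Lhx2 among them, had an H3K4me3 promoter peak, with young log2 levels between 12.07 and 16.38 in the authors' deposited table.

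An integrin is a pair of an alpha and a beta chain that crosses the membrane, holds a matrix protein outside the cell and is tied to the cytoskeleton inside it. Focal adhesions tie integrins to actin through talin, vinculin and alpha-actinin and signal through kinases, whereas hemidesmosomes tie the alpha6 beta4 integrin to keratin filaments through plectin and dystonin. In the bulge of the follicle these contacts anchor stem cells to the basement membrane, and some alpha v integrins release active TGF-beta from its latent form.

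Of the 38 genes, 1 was listed in the RNA table, 15 in the ATAC-seq table, 14 for H3K27me3, 34 for H3K4me3 and 18 for Pol2. Itgb6, Parva and Ptk2 stood in 4 tables, 9 genes in 3, 17 in 2 and 9 in 1. In old cells H3K4me3 was lower at each of the 31 promoters that carried a peak, Pol2 was called lower at 15 of 17, and most listed ATAC-seq peaks had fewer counts. Most genes in the tables shared those directions, so each count is set beside that of all genes. Itgb6 was the only one of the 38 genes listed in the RNA table, and its RNA was listed as higher in old cells, with an adjusted p above 0.05.

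The promoters themselves differed in sequence. RefSeq promoter sequences of the GRCm38.p6 assembly, from 250 bases before to 50 bases after a start, were matched for 29 of the 38 genes and gave 35 windows. The 27 windows that overlapped an H3K4me3 peak had a median of 23 CpG dinucleotides (3 to 47), the 8 windows outside one had a median of 6 (5 to 16), and all 32851 mouse promoters of the same length had a median of 7. Windows with few CpG inside H3K4me3 peaks were at Itgb6 (3), at 1 start of Cd151 (4), at Fermt1 (5) and at 1 start of Dst (6), and Itga11 had 16 CpG outside one. Itgb6 is shown as the window of lowest CpG count, with both of its annotated starts on the minus strand. The start at chr2:60673644-60673943 had only 3 CpG yet lay in an ATAC-seq, an H3K4me3 and a Pol2 peak, while the start at chr2:60722554-60722853 had 12 CpG and lay in none. Itgb1 (chr8:128685404-128685703, plus strand, 27 CpG) and Vcl (chr14:20929148-20929447, plus strand, 30 CpG) are shown as CpG-rich promoters with H3K4me3 and Pol2. Itgax, an integrin of dendritic cells and macrophages (chr7:128129300-128129599, plus strand, 5 CpG), is shown as a promoter inside an H3K27me3 peak and in no H3K4me3 peak. The sequences run 5′ to 3′, and capitals mark each CpG.
Itgb6, start in open chromatin: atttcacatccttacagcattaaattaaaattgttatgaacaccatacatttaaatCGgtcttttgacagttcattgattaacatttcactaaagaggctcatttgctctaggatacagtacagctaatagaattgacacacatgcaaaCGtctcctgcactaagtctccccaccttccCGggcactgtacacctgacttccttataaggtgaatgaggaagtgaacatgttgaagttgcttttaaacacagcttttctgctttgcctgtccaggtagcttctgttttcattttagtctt
Itgb6, start outside every listed peak: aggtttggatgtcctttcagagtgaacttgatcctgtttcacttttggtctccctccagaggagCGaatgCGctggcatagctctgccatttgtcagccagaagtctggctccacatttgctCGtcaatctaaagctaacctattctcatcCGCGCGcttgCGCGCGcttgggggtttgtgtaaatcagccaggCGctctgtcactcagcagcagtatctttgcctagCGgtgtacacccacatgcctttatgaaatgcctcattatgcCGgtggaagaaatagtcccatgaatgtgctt
Itgb1: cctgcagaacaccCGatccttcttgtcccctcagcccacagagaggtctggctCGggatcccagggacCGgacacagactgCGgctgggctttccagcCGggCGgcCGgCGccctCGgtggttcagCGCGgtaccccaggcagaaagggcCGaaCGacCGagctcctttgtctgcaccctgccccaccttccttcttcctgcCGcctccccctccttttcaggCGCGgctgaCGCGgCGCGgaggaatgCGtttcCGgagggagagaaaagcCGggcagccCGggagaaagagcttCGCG
Vcl: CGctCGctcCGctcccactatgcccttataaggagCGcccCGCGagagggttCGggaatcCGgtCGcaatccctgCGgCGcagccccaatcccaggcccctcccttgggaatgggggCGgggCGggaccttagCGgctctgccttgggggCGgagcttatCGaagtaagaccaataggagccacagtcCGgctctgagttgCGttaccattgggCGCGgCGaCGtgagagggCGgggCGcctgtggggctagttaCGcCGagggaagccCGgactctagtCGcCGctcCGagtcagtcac
Itgax: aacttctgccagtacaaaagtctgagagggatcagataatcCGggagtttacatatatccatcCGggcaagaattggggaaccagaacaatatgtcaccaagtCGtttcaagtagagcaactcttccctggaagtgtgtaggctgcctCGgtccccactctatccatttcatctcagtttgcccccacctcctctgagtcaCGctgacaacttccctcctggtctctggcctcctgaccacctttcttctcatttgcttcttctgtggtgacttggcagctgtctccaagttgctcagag

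A CArG box, the site of serum response factor, was searched as CC, then 6 bases of A or T, then GG, on either strand. The same letters, CCTTATAAGG, stood 50 bases before the CpG-poor Itgb6 start and 227 bases before the Vcl start, and Fermt2 had CCATAAAAGG 204 bases before its start. That made 3 of 35 windows (8.57%), against 1.63% of all promoters. The TEAD motif GGAATG was in 3 windows (8.57%, against 14.7%), at Itgb1, Vcl and Actn4, and the AP-1 motif TGANTCA in 5 (14.3%, against 7.81%), at Itga3, Itga9, Itgax, Actn4 and Zyx. The GC box GGGCGG was in 21 (60.0%, against 35.7%). These matches are letters in a window, and binding was not measured.

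H3K4me3 was lower in old cells at all 31 promoters with a peak and higher at 0, by the FDR under 0.05 of the authors' deposited table. Promoter peaks are those whose annotation puts them at most 1 kb from a start, and where a gene had several, the one with the highest level stands for it. Among all 12152 genes with such a peak the calls were 96.9% lower and 0.0329% higher, so the count does not set these genes apart. Their median log2 fold change of old over young was −1.36, against −1.43 for all genes, and the values ran from −2.30 to −1.19 in the authors' deposited table.

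The laminin-binding and hemidesmosomal genes, through which basal cells hold the basement membrane, ran from −1.68 to −1.19. They lay on both sides of the median of −1.36. Itga7, the laminin receptor chain best known from muscle, had a log2 level of 7.03 in old and 8.71 in young cells (−1.68) in the authors' deposited table. Plec, which encodes plectin, had 12.66 in old and 14.17 in young cells (−1.50) in the authors' deposited table. Dst, which encodes dystonin, was at the other end with 13.28 in old and 14.47 in young cells (−1.19, FDR 0.00151) in the authors' deposited table. Itgb4, the beta chain of hemidesmosomes, Cd151, the tetraspanin that binds laminin integrins, and Itga3, the chain of a receptor for epidermal laminin, lay between them at −1.37, −1.38 and −1.33 in the authors' deposited table. The H3K4me3 domains of Cd151, Dst and Plec were 20.4, 15.5 and 15.4 kb wide, with levels above 12 in old and young cells alike. Itga6, the partner of Itgb4 and the sort marker, had −1.54 in the authors' deposited table.

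Itgb1 pairs with the alpha chains that bind collagen, fibronectin and most laminins. Its promoter had an H3K4me3 level of 10.04 in old and 11.38 in young cells (−1.33) in the authors' deposited table. Of the collagen-binding chains, Itga1 had −1.19 (9.53 in old and 10.72 in young cells) and Itga2 −1.32 in the authors' deposited table, whereas Itga11 had no H3K4me3 peak. Itga1 and Dst thus had the smallest fall of the 31, followed by Fermt1 with 10.60 in old and 11.82 in young cells (−1.22) in the authors' deposited table.

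The largest falls were at promoters with little H3K4me3 in young cells. Itga8, which binds nephronectin and marks the arrector pili muscle next to the bulge, had a level of 5.72 in old and 8.02 in young cells (−2.30, FDR 5.27e-06) in the authors' deposited table. Itga2b and Itgb3, the chains of the platelet fibrinogen receptor, had 6.78 in old and 9.03 in young cells (−2.24) and 6.11 in old and 7.95 in young cells (−1.84) in the authors' deposited table. The peak annotated to Itga2b lies 12.9 kb from the RefSeq start of that gene, so its gene is not certain. Among all genes with a mean level of 6 to 8 the median was −1.61, against −2.07 for Itga8 and Itgb3, and between 8 and 10 it was −1.47, against −1.68 for Itga2b, Itga4 and Itga7. At levels of 10 to 12 the 19 genes here had a median of −1.33, against −1.41 for all genes. At 12 to 18 the 7 genes here had −1.37, against −1.40. The muscle markers searched (Des, Acta2 and Myh11) had an H3K4me3 promoter peak in 2 of 3 cases, with young levels of 6.35 to 8.01 and both called lower. The platelet markers (Pf4 and Ppbp) had a peak in 0 of 2. The part of other cells in the Itga8, Itga2b and Itgb3 values was not tested.

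The other fibronectin- and vitronectin-binding chains fell by less. Itgb6 had an H3K4me3 level of 10.71 in old and 12.10 in young cells (−1.39, FDR 0.0113) in the authors' deposited table. Itgav, the partner of beta3, beta5, beta6 and beta8, had 10.58 in old and 11.86 in young cells (−1.28) in the authors' deposited table. Itga5, the fibronectin receptor chain, had −1.36, and Itgb5 and Itgb8 −1.23 each in the authors' deposited table. Itga4, a receptor chain for fibronectin and VCAM-1, had −1.51 in the same authors' deposited table.

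Among the adaptors and kinases the strongest falls were of Vcl, Bcar1 and Zyx. Vcl, which encodes the actin linker vinculin, had 9.86 in old and 11.49 in young cells (−1.63, FDR 3.78e-07) in the authors' deposited table. Bcar1, the scaffold p130Cas, had 9.50 in old and 11.10 in young cells (−1.60), and Zyx, which encodes the tension-responsive protein zyxin, 10.76 in old and 12.34 in young cells (−1.58) in the authors' deposited table. Ptk2, which encodes focal adhesion kinase, had 10.12 in old and 11.58 in young cells (−1.47), and Src, its partner kinase, −1.43 in the authors' deposited table. Those 2 kinases lay close to the median of all genes. The integrin activators Tln1 (−1.33), Fermt2 (−1.36) and Fermt1 (−1.22), the actin linker Actn4 (−1.27), the scaffold Pxn (−1.32) and Ilk (−1.31), a partner of Parva, filled the rest of the range in the authors' deposited table. Actn1 had 11.53 in old and 12.91 in young cells (−1.38), and Parva 9.70 in old and 10.99 in young cells (−1.29) in the authors' deposited table. The Ilk peak lies 4.29 kb from the RefSeq starts of Ilk, which fall in a neighbouring peak annotated to Rrp8 (−1.46 in the authors' deposited table). Over all 82 H3K4me3 peaks of the 38 genes, 61 were called lower and 0 higher, where 79.1% of all peaks were lower and 0.281% higher.

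**Figure D1:**
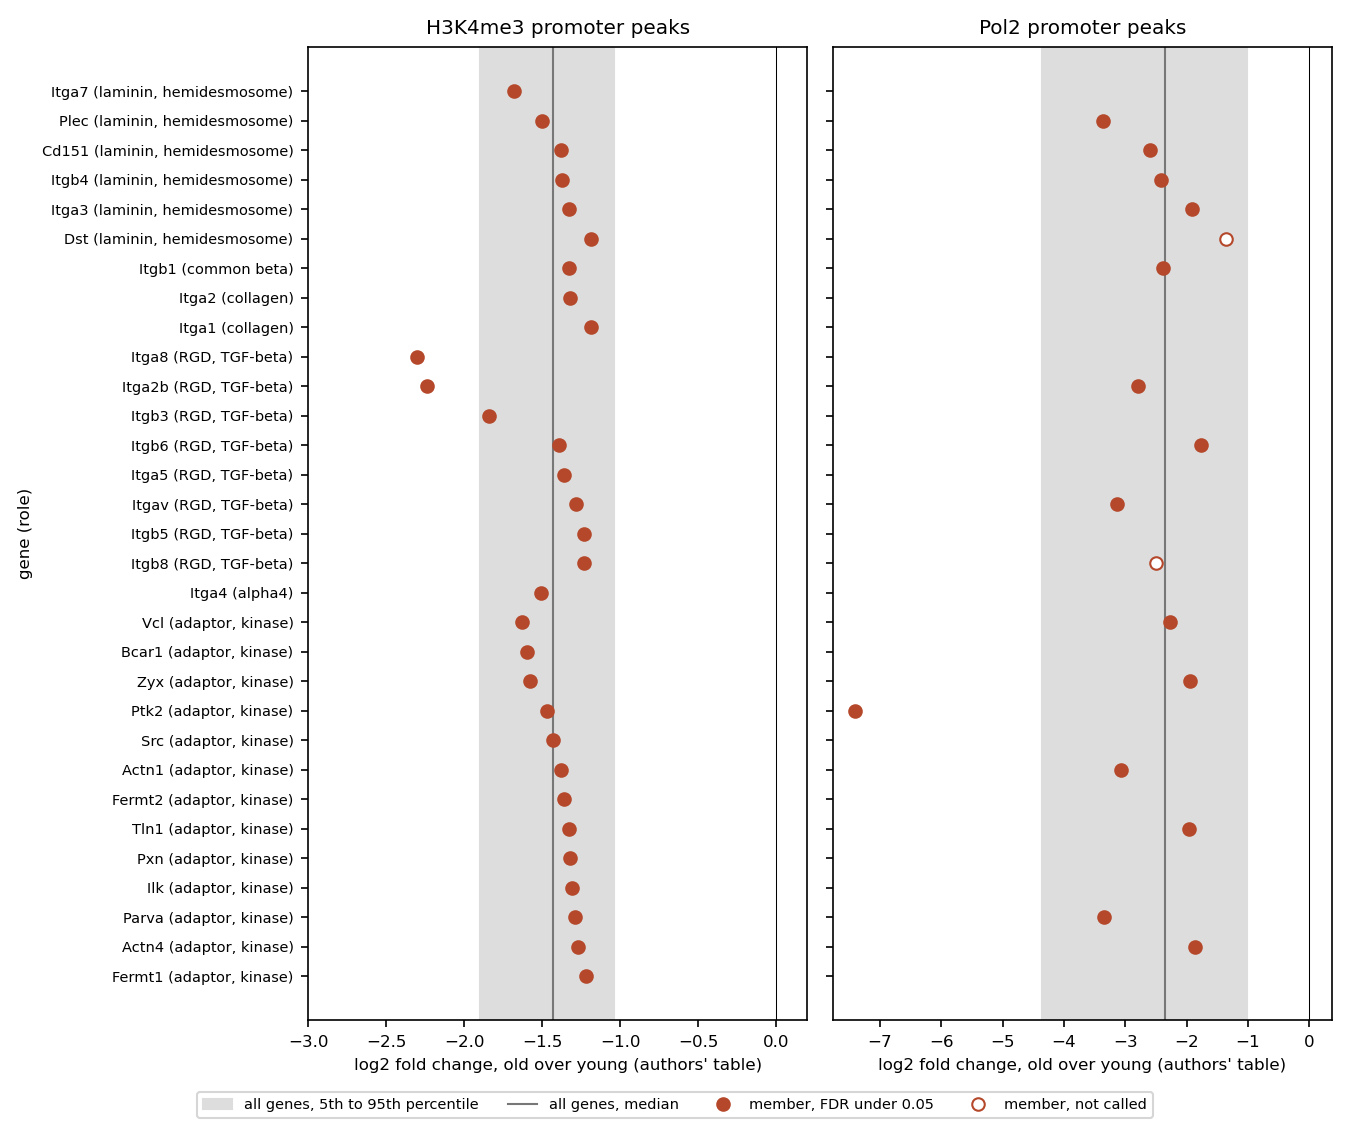
Log2 fold change of old over young (x axis) of H3K4me3 and Pol2 at promoter peaks, one gene per row with its role, from the authors' deposited tables; filled points passed an FDR under 0.05, open points did not, the grey band spans the 5th to 95th percentile of all genes with a promoter peak and the line is their median. Every H3K4me3 point lies below 0, with Itga8 (−2.30) and Itga2b (−2.24) to the left of the band, and in Pol2 only Ptk2 (−7.40), whose old level was the lowest the table holds, lies outside it.

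Pol2 asks where the polymerase sits on these genes. It was called lower in old cells at 15 of the 17 promoters with a Pol2 peak and higher at 0, where 85.5% of all 3332 genes were lower and 0.0% higher in the authors' deposited table. The median log2 fold change was −2.42 for these genes and −2.36 for all. Of the 31 H3K4me3 promoter peaks, 15 touched a Pol2 peak (48.4%), against 26.1% of all such peaks (a description, with no test). Counting every Pol2 peak of the 38 genes, 22 of 32 were called lower and 0 higher, where 52.9% of all peaks were lower and 0.0442% higher.

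In the hemidesmosomal group, Plec had a Pol2 level of 6.24 in old and 9.60 in young cells (−3.37, FDR 0.000112) in the authors' deposited table. Cd151 had 6.67 in old and 9.27 in young cells (−2.60, FDR 0.00284), and Itga3 8.51 in old and 10.42 in young cells (−1.91, FDR 0.0206) in the authors' deposited table. Itgb4 had 3.72 in old and 6.14 in young cells (−2.42, FDR 0.00393) in the authors' deposited table, at a small peak, chr11:115990304-115990532, that does not touch the H3K4me3 promoter peak of the gene. Dst carried the widest Pol2 domain of the group, 22.0 kb, with 12.38 in old and 13.72 in young cells (−1.35, FDR 0.0724) in the authors' deposited table, and was not called. The sort marker Itga6 had 4.59 in old and 8.85 in young cells (−4.27) in the authors' deposited table. Dst thus differed from Plec and Itga6 in value, and a difference between genes was not tested.

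Among the other integrins, Itgav had a Pol2 level of 4.60 in old and 7.73 in young cells (−3.13, FDR 0.0349) in the authors' deposited table. Itgb1 had 6.37 in old and 8.75 in young cells (−2.38, FDR 0.00692), and Itgb6 7.27 in old and 9.03 in young cells (−1.77, FDR 0.0321) in the authors' deposited table. Itga2b had 5.64 in old and 8.43 in young cells (−2.79, FDR 0.00645) in the authors' deposited table, at a peak that does not touch the H3K4me3 promoter peak standing for the gene. Itgb8, the other TGF-beta-activating beta chain, had 5.59 in old and 8.09 in young cells (−2.50) with an FDR of 0.18 in the authors' deposited table, a fold like that of Itgb1 that did not pass the threshold.

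Of the adaptors and kinases, Ptk2 stood apart. Its Pol2 level was −0.18 in old cells, the lowest old level in the authors' deposited table, and 7.21 in young cells, so that the fold of −7.40 is no measured bound. Parva, which links integrins to actin, had 3.96 in old and 7.30 in young cells (−3.34, FDR 0.000388) in the authors' deposited table. Actn1 had 6.78 in old and 9.85 in young cells (−3.07, FDR 0.000353) in the authors' deposited table. Smaller folds were called lower at Vcl (8.23 in old and 10.50 in young cells, −2.27, FDR 0.00396) and Tln1 (5.53 in old and 7.49 in young cells, −1.96, FDR 0.0215) in the authors' deposited table. Zyx (8.61 in old and 10.55 in young cells, −1.94, FDR 0.0123) and Actn4 (7.70 in old and 9.56 in young cells, −1.86, FDR 0.0314) were called lower as well in the authors' deposited table. Src, Pxn, Ilk, Fermt1 and Fermt2 had no Pol2 peak. That of Bcar1 was annotated to an intron (−3.12, FDR 0.00127 in the authors' deposited table) and was not counted among the promoters. It nevertheless overlaps a RefSeq promoter window of Bcar1, chr8:111732087-111732386.

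ATAC-seq shows where chromatin was open, library by library. The table lists 30 peaks at 15 of the 38 genes, of which 3 lie at promoters, 15 in introns, 11 between genes and 1 in an exon. They are 300 to 2000 bases wide and are assigned to genes by the authors' annotation. Old libraries had the lower mean count at 26 of them and the higher one at 4. With edgeR on the counts as deposited, 17 peaks at 11 genes were called lower and 2 higher, at an FDR under 0.05. Among all 7849 listed peaks 46.4% were called lower and 5.43% higher, and 85.9% had the lower mean in old libraries. The peaks had been selected by the authors on this same contrast, so these FDRs only order the listed peaks and set no limit on false ones. The median log2 fold change was −0.65 for the 30 peaks and −0.64 for all.

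The split depended on the scaling. TMM scaling takes a weighted trimmed mean over the listed peaks as unchanged, and it raised log2 fold changes by a median of 0.59. With it, 0 of the 30 peaks were called lower and 4 higher with edgeR (0.701% and 13.9% of all peaks), and 0 were lower at an unadjusted p under 0.05. In the counts as deposited, all 4 old libraries lay below all 4 young libraries at 16 peaks and above them at 2, where the shares of all peaks were 35.8% and 4.88%. Fold changes are of the counts as deposited, with no scaling applied here, unless TMM is named.

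Itgb6, the beta chain of the TGF-beta-activating alpha v beta6 integrin, had 4 listed peaks, all called lower. At the intronic peak chr2:60700101-60700450 the old libraries had 109, 56, 79 and 44 counts, against 158, 148, 175 and 182 in the young libraries. All old libraries lay below all young ones, at 72.0 ± 28.6 and 166 ± 15.5 counts (SD, n = 4 each), with a log2 fold change of −1.20 (edgeR FDR 0.0183, and −0.64 with TMM). A much larger intronic peak at chr2:60694451-60696450 had 1866, 1642, 1503 and 1433 counts in old libraries, against 1942, 2250, 2298 and 2626 in young ones, which again did not overlap (−0.50, edgeR FDR 0.0183, but 0.09 with TMM). The promoter peak chr2:60672701-60674050, over the CpG-poor start, had 608, 656, 520 and 432 counts in old libraries, against 947, 817, 741 and 784 in young ones (−0.57, edgeR FDR 0.0257, but 0.01 with TMM). The third, at chr2:60674401-60674850, had 187, 166, 142 and 64 counts in old libraries, against 233, 267, 216 and 224 in young ones (−0.75, edgeR FDR 0.0462). Old replicate 4 was the lowest old library at all 4 peaks. Without it neither promoter peak was called, and the larger one was not called without old replicate 3 either (edgeR FDR 0.0547). The call at chr2:60674401-60674850 held in 1 of the 8 fits that left out a library (highest edgeR FDR 0.103, without old replicate 4), while both intronic peaks were called whichever library was left out.

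Itgb1 had a peak in each direction. At chr8:128666501-128667550, 18.1 kb from the annotated start, old libraries had 1055, 957, 1132 and 1074 counts, against 1365, 1628, 1313 and 2143 in young ones (−0.61, edgeR FDR 0.0161). At chr8:128556601-128556950, 129 kb away, old libraries had 120, 143, 124 and 166 counts, against 79, 61, 42 and 69 in young ones (1.14, edgeR FDR 0.0216, and 1.75 with TMM). Neither pair of groups overlapped, and both peaks were called whichever library was left out. The more distant peak is assigned to Itgb1 by position alone.

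The alpha chains with listed peaks were Itgav, Itga4, Itga8 and Itga11. Itgav at chr2:83733851-83734400 had 178, 225, 197 and 140 counts in old libraries, against 330, 230, 315 and 362 in young ones (−0.74, edgeR FDR 0.0307, and 0.0617 without old replicate 4). Its other intronic peak, at chr2:83728351-83728950, averaged 316 ± 48.6 counts in old and 458 ± 103 in young libraries (SD, n = 4 each) and was not called (−0.53, edgeR FDR 0.0503, but 0.08 on the log2 scale with TMM). Both Itgav peaks overlap H3K4me3 peaks that were called lower. Itga4 at chr2:79159401-79159800 had 120, 154, 161 and 184 counts in old libraries, against 295, 190, 265 and 224 in young ones (−0.65, edgeR FDR 0.0456, and 0.0942 without young replicate 1). Itga8 at chr2:12325401-12326300 had 668, 462, 418 and 222 counts in old libraries, against 705, 630, 694 and 744 in young ones. These groups overlapped through old replicate 1, with −0.65 and an edgeR FDR of 0.0384, or 0.0790 without old replicate 4. Calls at Itga4 and Itga8 held in only 1 of the 8 fits that left out a library, and that at Itgav in 4.

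Itga11, a collagen receptor chain of fibroblasts, gained counts. Its intronic peak chr9:62722651-62723150 had 351, 243, 241 and 261 counts in old libraries, against 157, 157, 140 and 150 in young ones. That is 274 ± 52.1 and 151 ± 8.04 counts (SD, n = 4 each) with no overlap, a log2 fold change of 0.86 (edgeR FDR 0.0215, and 1.44 with TMM), and the call held whichever library was left out. The peak lies in an H3K27me3 peak, chr9:62719237-62723232, where that mark had a log2 level of 7.28 in old and 8.33 in young cells (−1.05, FDR 0.00198) in the authors' deposited table. It was the only one of the 30 ATAC-seq peaks that overlapped an H3K27me3 peak. Fibroblast markers had 2 listed ATAC-seq peaks, of which that of Col1a2 was called higher (0.84, edgeR FDR 0.0387) and that of Pdgfra was not called (−0.52, edgeR FDR 0.0709). They had an H3K4me3 promoter peak in 3 of 6 cases, all called lower, and an H3K27me3 promoter peak in 2, with Pdgfra called lower (−0.46, FDR 0.00447) and Col1a1 not called (−2.86, FDR 0.434) in the authors' deposited table. Listed RNA covered Col1a2 alone (−0.39, adjusted p 0.0861, not called) in the authors' deposited table. Their part in the Itga11 value was not tested.

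Among adaptors and kinases Bcar1 had the lowest fold. Its peak at chr8:111747951-111748400, 4.10 kb from the start, had 99, 74, 164 and 86 counts in old libraries, against 216, 171, 188 and 311 in young ones (−1.07, edgeR FDR 0.0222, and 0.0507 without young replicate 4). Ptk2 at chr15:73431601-73432000, 8.32 kb from the start, had 120, 54, 111 and 98 counts in old libraries, against 174, 201, 229 and 144 in young ones (−0.96, edgeR FDR 0.0284, and 0.0636 without young replicate 3). The groups did not overlap at either, and the calls at Bcar1 and Ptk2 held in 7 and 6 of the 8 fits that left out a library. The hemidesmosomal Dst had 110, 66, 75 and 67 counts in old libraries, against 190, 157, 134 and 148 in young ones, at chr1:34315451-34315800 (−0.98, edgeR FDR 0.0271, and 0.0539 without old replicate 3). Its remaining 3 peaks, between −0.60 and −0.53, were not called. The peak of Dst at chr1:34161601-34162000 lies in the wide H3K4me3 domain of that gene and in a Pol2 peak that was not called lower (−1.15, FDR 0.121 in the authors' deposited table).

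Actn1, which encodes an alpha-actinin, had 5 listed peaks, 4 of them called lower. At chr12:80277601-80278000 old libraries had 65, 115, 104 and 62 counts, against 158, 214, 124 and 168 in young ones (−0.94, edgeR FDR 0.0318, and 0.0674 without young replicate 2). The intronic peak chr12:80234301-80234850 averaged 196 ± 45.2 counts in old and 366 ± 149 in young libraries (SD, n = 4 each; −0.91, edgeR FDR 0.0254, and 0.0784 without young replicate 4). The one at chr12:80206001-80206550 averaged 129.5 ± 25.5 counts in old and 227 ± 51.7 in young libraries (SD, n = 4 each; −0.81, edgeR FDR 0.0311, and 0.0760 without young replicate 4). Calls at the peaks chr12:80277601-80278000 and chr12:80206001-80206550 held in 4 of the 8 fits that left out a library, and that at chr12:80234301-80234850 in 6. The peak chr12:80319001-80319550 averaged 306.5 ± 44.8 counts in old and 454 ± 94.5 in young libraries (SD, n = 4 each; −0.57, edgeR FDR 0.0426), but had 0.04 with TMM, and its call held in 1 of the 8 fits that left out a library (0.112 without young replicate 2). The peak chr12:80281501-80281850, at 109 ± 34.9 and 163 ± 27.6 counts in old and young libraries (SD, n = 4 each), was not called (−0.58, edgeR FDR 0.0931). Actn4, the related alpha-actinin, had 113, 90, 59 and 44 counts in old libraries, against 131, 194, 77 and 111 in young ones, at chr7:28953701-28954000. These groups overlapped (−0.74, edgeR FDR 0.0781), as did those of its second peak (−0.70, edgeR FDR 0.0599).

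Parva at chr7:112457451-112457900 had 185, 201, 190 and 189 counts in old libraries, against 366, 289, 223 and 345 in young ones (−0.68, edgeR FDR 0.0351, and 0.0688 without young replicate 1). The old libraries were close to each other there and all below the young ones, but the call held in only 2 of the 8 fits that left out a library. A second Parva peak, chr7:112493401-112493700, had 62, 111, 44 and 68 counts in old libraries, against 150, 101, 133 and 120 in young ones, which overlapped (−0.82, edgeR FDR 0.0528). Pxn, which encodes the scaffold paxillin, had 170, 179, 167 and 108 counts in old libraries, against 178, 230, 265 and 348 in young ones, at chr5:115503101-115503550 (−0.71, edgeR FDR 0.0432, and 0.117 without young replicate 4). The call at Pxn held in 1 of the 8 fits that left out a library, and its other peak was not called (−0.54, edgeR FDR 0.0691).

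Src and Tln2 leaned the other way, and with the counts as deposited neither passed the threshold. The exonic Src peak chr2:157458451-157458850 had 209, 198, 190 and 178 counts in old libraries, against 180, 139, 104 and 80 in young ones (0.62, edgeR FDR 0.0674, and 1.20 with TMM). Tln2, which encodes another talin, had 124, 208, 137 and 192 counts in old libraries, against 137, 121, 66 and 71 in young ones, at chr9:67305001-67305350 (0.74, edgeR FDR 0.0585, and 1.34 with TMM). At both peaks the groups overlapped. With TMM scaling they were called higher, beside Itgb1 and Itga11.

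**Figure D2:**
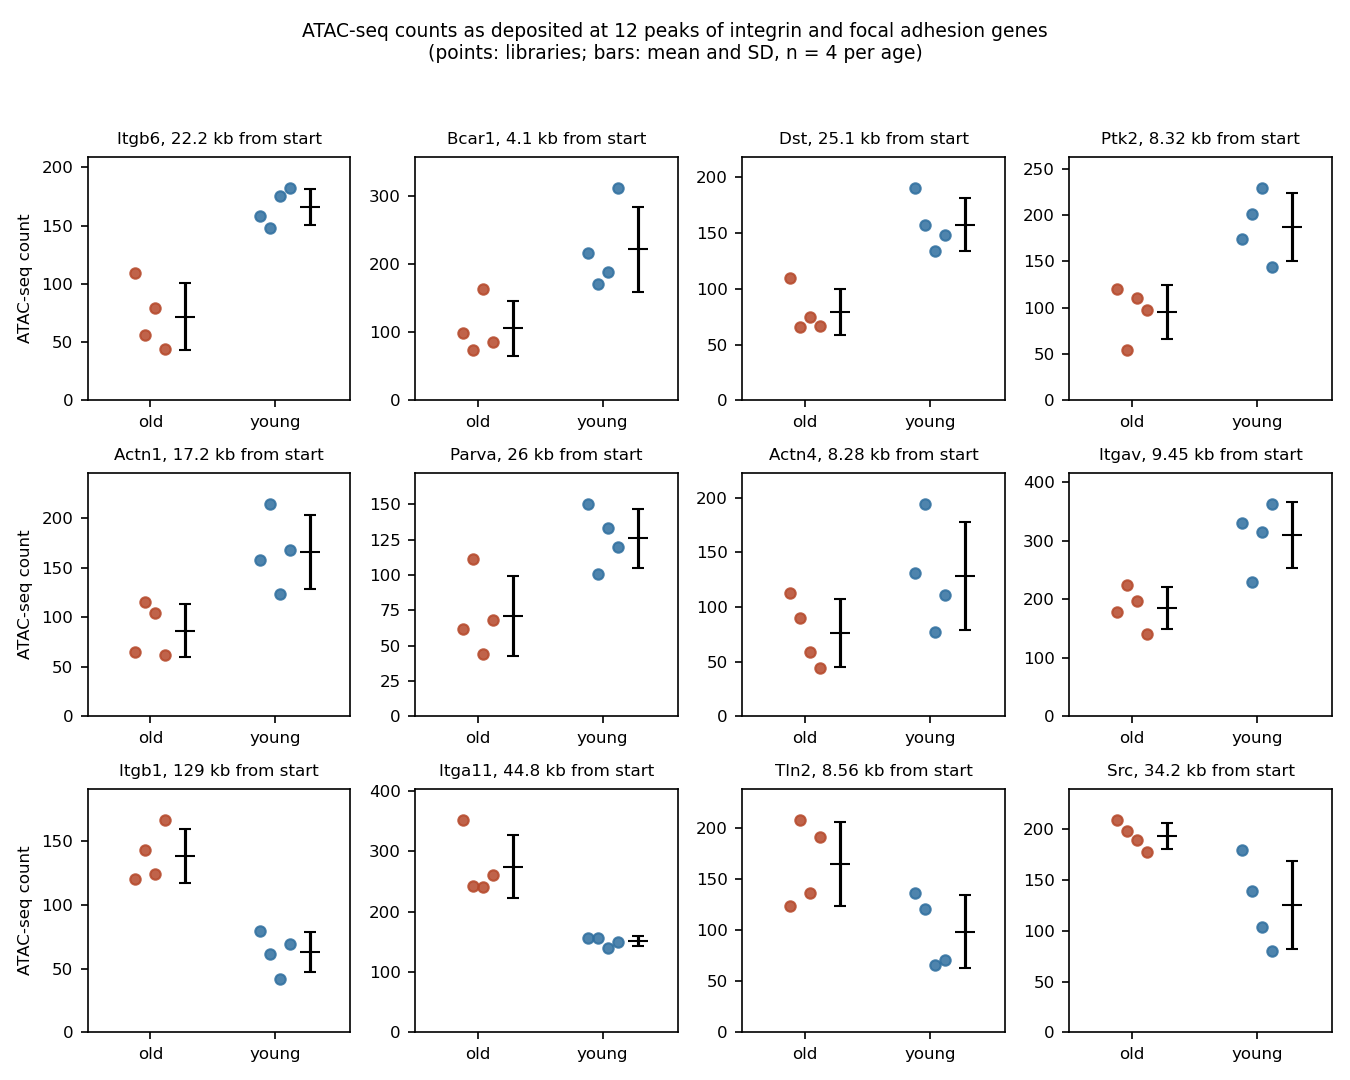
ATAC-seq counts as deposited (y axes, from 0) in each old and young library at 12 peaks, titled with the gene and the distance from its annotated start; points are libraries and bars are mean and SD, n = 4 per age. The old points lie lower in the first 8 panels, with overlap at Parva and Actn4, and higher in the last 4, with no overlap at Itgb1 and Itga11 and overlap at Tln2 and Src.

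H3K27me3 asks where Polycomb covers these genes. Of the 38 genes, 14 had 135 peaks in the authors' deposited table, of which 55 are at Itga9 and 25 at Itga11. Of the 135 peaks, 3 were called lower and 7 higher in old cells, where 2.6% of all peaks were lower and 2.66% higher. At promoters 8 genes had a peak, 0 of them called lower and 1 higher, where the authors' deposited table has 11.2% of all such genes lower and 2.63% higher. The median log2 fold change at those 8 promoters was 0.18, against −0.11 for all genes.

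The broadest domains lay over the promoters of Itga9, Itgb3 and Itga11. Itga9, a tenascin receptor chain, had a domain of 34.7 kb with a level of 11.81 in old and 11.80 in young cells (0.01, FDR 0.98) in the authors' deposited table. Itgb3 had one of 24.1 kb (−0.19, FDR 0.635) and Itga11 one of 23.6 kb (−0.01, FDR 0.993) in the authors' deposited table. These 3 domains had near equal levels in old and young cells, although the tables give no replicate spread to set an interval on that. Itga7 (−0.30) and Itga8 (1.02, FDR 0.226) were not called either in the authors' deposited table. The RefSeq start of Itga9 used for its sequence window lies outside the 34.7 kb domain. It lies in another H3K27me3 peak of Itga9, 8.37 kb wide (−0.17, FDR 0.707 in the authors' deposited table). The H3K4me3 promoter peaks of Itga5, Itga7, Itga8 and Itgb3 touched an H3K27me3 peak, which is 12.9% of the 31, against 15.0% of all genes with an H3K4me3 promoter peak.

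Away from those domains single peaks moved in both directions. At Itga9 an intronic peak had 7.39 in old and 6.09 in young cells (1.30, FDR 0.0014), and a small one 5.77 in old and 2.49 in young cells (3.28, FDR 0.0106) in the authors' deposited table. Next to the Itgb3 domain an exonic peak had 9.09 in old and 8.07 in young cells (1.03, FDR 0.00163) in the authors' deposited table. Upstream of Itga11 there were 3 distal peaks with more H3K27me3 in old cells (0.60, 1.07 and 1.19), and in its introns 2 peaks with less (−1.05 and −2.70, FDR 0.0275) in the authors' deposited table. At Itga5 a peak 1.89 kb from the start had 5.70 in old and 7.32 in young cells (−1.63, FDR 0.0118) in the authors' deposited table. Parva, Ptk2, Fermt2, Src and Tln2 had H3K27me3 peaks too, none of which was called.

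The leukocyte integrins stood in few tables. Itgal, the alpha chain of the lymphocyte receptor LFA-1, had an H3K27me3 promoter level of 8.83 in old and 8.21 in young cells (0.63, FDR 0.014) in the authors' deposited table. That is its promoter peak of highest level, chr7:127309584-127313568. Another Itgal peak within 1 kb of an annotated start, chr7:127296474-127297161, was not called (0.57, FDR 0.644 in the authors' deposited table). Itgam (0.36, FDR 0.428) and Itgax (0.91, FDR 0.799), chains of myeloid receptors, were not called in the authors' deposited table. The Itgam value is of a peak away from the RefSeq start of that gene, which lies in another H3K27me3 peak (0.05, FDR 0.979 in the authors' deposited table). Itgal, Itgam and Itgax had no peak for H3K4me3 or Pol2 and no listed ATAC-seq peak or RNA. Itgb7 was listed for H3K4me3 only, away from its start. Of 12 leukocyte markers, 5 had an H3K27me3 promoter peak, of which 1 was called higher (Laptm5, 0.46) and 0 lower in the authors' deposited table. For H3K4me3, 1 of the 12 had a promoter peak (H2-Ab1, −1.72), and 2 were listed in RNA, Cd74 at −1.36 (called lower) and H2-Eb1 at −0.64 (not called), in the authors' deposited table. In ATAC-seq the list had 1 listed peak, at H2-Eb1, with means of 136.5 counts in old and 74.5 in young libraries (0.87, edgeR FDR 0.0434), which runs opposite to the RNA values. The part of leukocytes in the Itgal value was not tested.

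**Figure D3:**
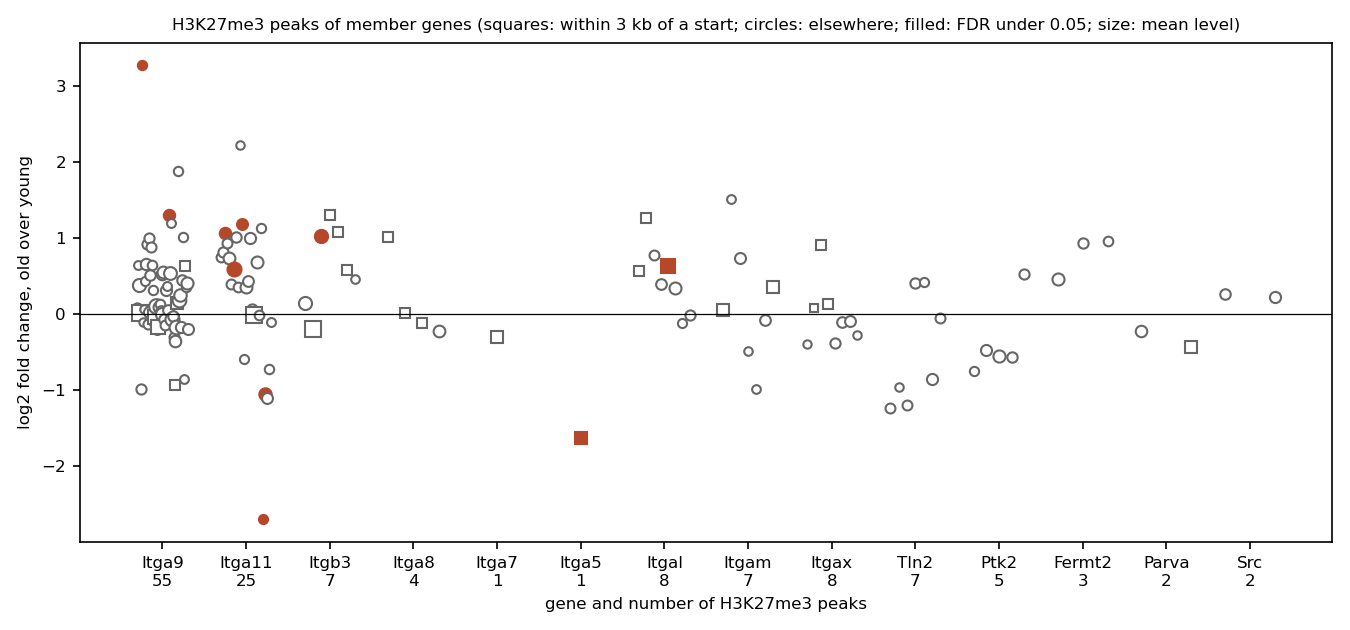
Log2 fold change of old over young (y axis) of each H3K27me3 peak of 14 genes (x axis, with the number of peaks), from the authors' deposited table; squares lie within 3 kb of a start, circles elsewhere, filled symbols passed an FDR under 0.05 and size grows with the mean level. Most of the 135 peaks are open and lie on both sides of 0, and the large squares of Itga9, Itga11 and Itgb3 lie near 0.

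RNA was listed for Itgb6 only. The authors' deposited table gives a mean of 8538 normalised counts over all libraries and a log2 fold change of 0.51 (deposited SE 0.162) with an adjusted p of 0.0572, which is above 0.05. So 0 of the 38 genes were called in RNA. Only Itgb6 stood among the 597 listed genes, of which 38.0% were called higher and 18.8% lower in the authors' deposited table. These are shares of the genes listed at an adjusted p up to 0.1, not of all genes, so they are no measure for the 38. The direction rests on the header of that table, and in bulk RNA fewer cells of a type and less RNA per cell cannot be told apart. The table stops at an adjusted p of 0.1, so the other genes had no value there, which does not show that their RNA was unchanged. Itgb6 is thus the gene with an RNA value listed as higher in old cells beside lower H3K4me3 (−1.39), lower Pol2 (−1.77) and 4 lower ATAC-seq peaks. The medians of all genes were −1.43 for H3K4me3 and −2.36 for Pol2, so those lower values are not particular to Itgb6. With TMM its 4 ATAC-seq peaks had 0.01, −0.20, 0.09 and −0.64.

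Actn1, Itgav, Itgb1, Itgb6, Parva and Ptk2 were called in 3 tables, ATAC-seq, H3K4me3 and Pol2. For H3K4me3 and Pol2 only promoter peaks were counted. Bcar1 was called lower in the same 3 tables, but its Pol2 peak was annotated to an intron, so it was left out. Each of the 6 had lower H3K4me3, lower Pol2 and at least 1 lower ATAC-seq peak. Itgb1 was the only one of the 6 with an ATAC-seq peak called higher. Of all genes with a promoter peak, 96.9% were called lower for H3K4me3 and 85.5% for Pol2, and 46.4% of all listed ATAC-seq peaks were. How many of all genes were called in the same 3 tables was not counted. Since most genes in each table were lower too, the shared direction is given as a description.

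**Figure D4:**
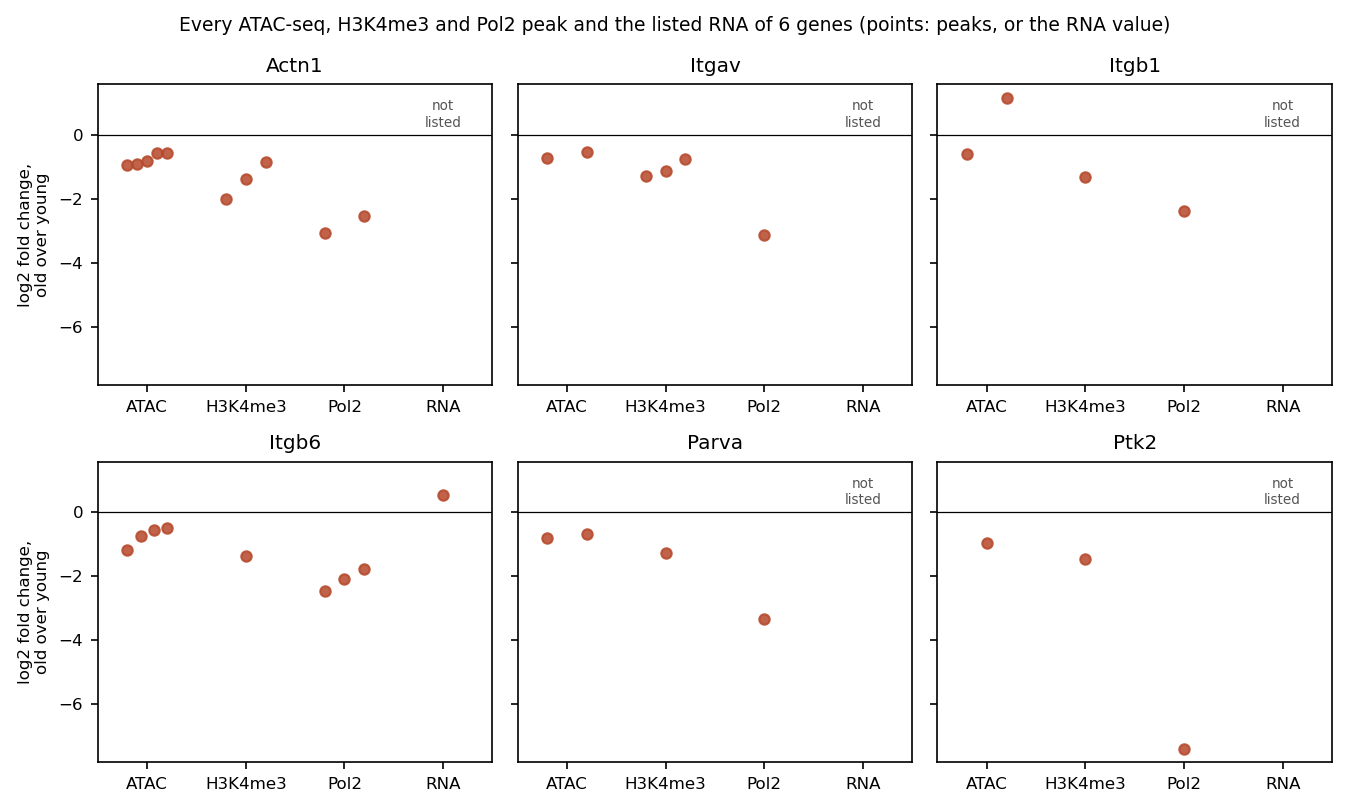
Log2 fold change of old over young (y axis) of every ATAC-seq, H3K4me3 and Pol2 peak and of the listed RNA (x axis) of the 6 genes called in 3 tables, with ChIP-seq calls counted at promoter peaks only. Points are peaks or the RNA value, and H3K27me3 is not drawn. All points lie below 0 except the Itgb1 ATAC-seq peak at 1.14 and the Itgb6 RNA at 0.51, and the lowest point is Ptk2 in Pol2 at −7.40.

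Genes around the integrins, taken from lists of their ligands, adaptors and mechanical targets, are set beside the shares of all features. Of 28 ligand genes with an H3K4me3 promoter peak, 27 were called lower and 0 higher, beside 96.9% and 0.0329% of all genes. The exception was Postn, which encodes the matrix protein periostin (−0.45, FDR 0.171), and Pol2 was lower at 5 of 7 ligand genes, beside 85.5% of all genes, in the authors' deposited table. The laminin chain genes Lama3 (−1.99) and Lamb3 (−2.69) were among the 5, while Col17a1, the hemidesmosomal collagen (−1.21, FDR 0.101), was not called in the authors' deposited table. In ATAC-seq the ligands had 41 listed peaks, 37 lower and 4 higher in mean count, of which edgeR called 17 lower and 2 higher, beside 46.4% and 5.43% of all listed peaks. A peak at Ltbp1, which binds latent TGF-beta, averaged 40.0 counts in old and 122.5 in young libraries (−1.61, edgeR FDR 0.0130), and a Col17a1 peak 144 in old and 72.2 in young libraries (0.99, edgeR FDR 0.0412). The other Col17a1 peaks were lower in mean count (−0.64, −0.60 and −0.57), and the first of them was called (edgeR FDR 0.0434). For H3K27me3, 1 of 11 was called lower (Nid2, −0.69), beside 11.2% of all genes, and Tnc, which encodes tenascin C, was the 1 gene listed in RNA (0.65, called higher) in the authors' deposited table.

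Of 44 further adaptors and signalling genes with an H3K4me3 promoter peak, 44 were called lower, and Pol2 was lower at 12 of 15, beside the 96.9% and 85.5% of all genes, in the authors' deposited table. The exceptions in Pol2 were Tns4 (−1.48), Tns1 (−1.26), both tensin genes, and Kank1 (−1.03), whose product binds talin, in the authors' deposited table. They had 45 ATAC-seq peaks, 43 lower and 2 higher in mean count, with 21 and 0 called by edgeR, beside the 46.4% and 5.43% of all listed peaks. The lowest was at Parvg, a parvin of blood cells, with means of 54.5 counts in old and 155 in young libraries (−1.50, edgeR FDR 0.0153). In RNA 1 of 3 listed genes was called, Git1, a scaffold that binds paxillin (−0.43), in the authors' deposited table. Of 27 genes of mechanosensing and of the YAP and SRF programmes, 27 had lower H3K4me3, and 10 of 12 had lower Pol2, beside the same 96.9% and 85.5%, in the authors' deposited table. Lmna, which encodes lamin A (−0.67, FDR 0.459), and the YAP target Ccn1 (−1.42, FDR 0.0673) were the Pol2 exceptions in the authors' deposited table. Their 27 ATAC-seq peaks were lower in 25 cases and higher in 2, with 10 and 1 called by edgeR, beside the same 46.4% and 5.43%. The higher call was at Piezo1, which encodes a stretch-gated channel, with means of 128.5 counts in old and 66.0 in young libraries (0.96, edgeR FDR 0.0389).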

How the data were processed

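Groups were taken from the sample titles and ages. The submitters' processing notes name STAR 2.5.2b with GRCm38.p5, featureCounts and DESeq2 1.22.2 for RNA. For ATAC-seq they name BWA 0.7.12 with GRCm38. For ChIP-seq they name BWA 0.7.15, MACS2 2.2.7.1 and DiffBind 2.14.0, again with GRCm38.

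Per the file headers, the RNA table deposited by the authors gives a mean normalised signal, a log2 fold change with its SE, a test score, a p-value and an adjusted p. For ATAC-seq the authors deposited a count per peak and library, a log2 ratio and a −log10 p-value, and only peaks with a −log10 p of at least 2.004 and a log2 ratio of at least 0.5 in size are listed. No source used here says whether these counts were scaled. For ChIP-seq the authors deposited log2 levels per group, their difference and an FDR, with no value per library. Differences of ATAC-seq and ChIP-seq were turned here to old over young. Positions are as deposited.

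ATAC-seq counts were tested with edgeR 4.0.16 in R 4.3.3 (quasi-likelihood F-test, equal library sizes, two-sided, Benjamini-Hochberg over all 7849 peaks). filterByExpr removed 0 peaks. On simulated counts for 7849 peaks it found 5.97%, 46.3% and 95.5% of the peaks given log2 changes of 0.5, 1 and 2, with 7 false calls. In it most peaks were unchanged and libraries were alike in size, whereas the listed peaks were selected on this contrast and old totals were lower. Its false calls are thus no rate for these data. ChIP-seq and RNA calls are the authors', at 0.05. Overlaps need 1 base. Python 3.11.15, pandas 2.3.3, numpy 2.4.6 and matplotlib 3.10.9 were used. DESeq2 1.42.0, other scalings, the replicate number as a block, left-out libraries, a threshold of 0.01 and promoters within 3 kb were tried as alternatives.

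Levels or counts at both ages are given for genes called at a promoter for H3K27me3 or Pol2, listed in RNA, or with a higher ATAC-seq peak. They are also given for the 6 lowest and 3 highest H3K4me3 folds and for the lowest ATAC-seq peak of 10 genes. Genes called in 3 tables, with ChIP-seq calls at promoter peaks only, have them as well. The genes, lists and tests were chosen with earlier results of these data known. P-values set the difference between ages against the spread between libraries of an age.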

Additional observations from a re-analysis of the deposited data

Results flagged for a closer look

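Of 60 groups of 4 libraries compared at the 30 ATAC-seq peaks, 1 had a library far from the other three, where chance alone would give about 1 in 20 groups. At the Pxn peak chr5:115503101-115503550 old replicate 4 had 108 counts, beside 170, 179 and 167 in the other old libraries. It is also the old library with the lowest total over listed peaks, 1572998 counts.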

How the results depend on the processing

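Calls at the ATAC-seq peaks depended on the scaling and on single libraries, while H3K4me3 gave 31 lower genes under every alternative tried except an FDR under 0.01, which left 30 and dropped Itgb6. The 17 peaks called lower became 0 with TMM scaling, 0 with library totals and 0 with DESeq2 size factors, where 0, 1 and 1 were lower at an unadjusted p under 0.05. They became 2 with the replicate block (20 at an unadjusted p under 0.05) and 0 at an FDR under 0.01, and were 5 to 14 when a library was left out: 5 without old replicate 3, 7 without old replicate 4, 8 without young replicate 4, 9 without young replicate 3 and 11 without old replicate 2. DESeq2 on the counts as deposited, with no further scaling, called 21. The 2 peaks called higher became 4 with TMM, with library totals and with DESeq2 size factors, 0 with the replicate block (4 at an unadjusted p under 0.05) and 0 at an FDR under 0.01, and 2 to 4 when a library was left out, with 4 without young replicate 1. Of the 19 called peaks, 5 were called whichever library was left out: both of Itgb1, that of Itga11 and the intronic ones of Itgb6. Among the 24 peaks followed under every alternative, directions turned at 4: to 0.04 with TMM and 0.03 with DESeq2 size factors at Actn1 80319001, to 0.08, 0.07 and, with library totals, 0.01 at Itgav 83728351, to 0.01 with TMM at Itgb6 60672701, and to 0.09, 0.08 and, with library totals, 0.02 at Itgb6 60694451. Over all 30 peaks, 18 were lower with TMM, against 26 in the counts as deposited. TMM and library totals take the typical listed peak or the sum as unchanged, by construction. H3K27me3 gave 1 lower gene (Itga5) with promoters within 3 kb and 0 higher at an FDR under 0.01, Pol2 gave 9 lower genes at an FDR under 0.01, and RNA 1 gene at an adjusted p up to 0.1. ATAC-seq libraries with the same number did not deviate together (correlations from −0.186 to 0.035, with 1 of 4 old libraries correlating best with its own number). No pairing by number was thus seen, which does not exclude one. No pair of libraries agreed within sampling noise (lowest chi-square per degree of freedom 10.8). Group levels without replicate values allow no left-out fit for ChIP-seq or RNA.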

Other observations

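The start of Itga1, which has no listed ATAC-seq peak of its own, lies in a peak annotated to Pelo, the gene nested within it, at chr13:115101301-115102400. That peak had 746, 514, 688 and 495 counts in old libraries, against 720, 911, 930 and 944 in young ones, and the groups overlapped through old replicate 1 (log2 fold change −0.52). Dst carried 15 H3K4me3 peaks along its length, and those at its other starts had −1.56, −1.30, −1.15 and −0.69 in the authors' deposited table. At Tln2 the one H3K4me3 peak, 7.52 kb wide and annotated as distal, had 10.83 in old and 12.04 in young cells (−1.22) in the authors' deposited table.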
